A study of Mus musculus with 4 samples.

Results

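A set of 9 genes of cell adhesion and cell junctions were followed in late two-cell mouse embryos of the ICR strain. They were taken by symbol from the 24411 genes listed for each library, and all 9 were found. Cdh1, Ctnna1 and Ctnnd1 belong to adherens junctions, Gja1 to gap junctions, and Tjp1, Cldn4, Cldn6, Ocln and F11r to tight junctions. Polyadenylated RNA was sequenced in 4 libraries, each prepared from 10 pooled embryos that were produced by in vitro fertilization and collected at 36 hpi (hours post-insemination). In 2 libraries the embryos had been cultured with 6 µM 10074-G5, a small molecule that binds MYC and prevents its pairing with MAX, and in the other 2 with DMSO, the solvent that both groups received. The inhibitor was added at 3 hpi according to the sample labels and at 6 hpi according to the series design.

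Compaction is the step at which the blastomeres of the cleaving embryo flatten against each other and become polarized. It depends on E-cadherin, which binds neighbouring cells outside the membrane and is tied to actin inside it by the catenins. Gap junctions made of connexins let small molecules pass between the compacted cells, and tight junctions later seal the trophectoderm so that the blastocoel can fill. In the mouse these steps come after the stage sampled here, so the values describe transcripts present before compaction.

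Gja1 was 4.98-fold lower in the mean of inhibitor-treated embryos than in DMSO embryos, and F11r was 2.19-fold lower. The transcripts of E-cadherin, of both catenins, of Tjp1 and of Cldn6 had treated means at most 1.27-fold from the DMSO mean. These means are in CPM, the count scaled to the normalized library total. Cldn4 was hardly detected. No member passed the thresholds by edgeR, the main test, and Gja1 passed them by DESeq2, the tool of the study. DMSO replicate 1 lay farther from the treated libraries than DMSO replicate 2 for all 8 members that could be tested, against 77.2% of the 13549 tested genes.

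The libraries held between 18206584 and 20718690 expected counts, which are estimated fragments per gene. Across all tested genes DMSO replicate 1 stood apart, with 43.4% of the genes differing over 2-fold between the DMSO replicates and 21.9% between the treated replicates. Marker genes were read beside the labelled stage. The transcripts of 12 oocyte and 16 two-cell genes were each detected in at least 1 library, with sums from 966 to 4785 FPKM and from 3479 to 5896 FPKM over the libraries. All 10 blastocyst markers were detected too, with sums from 13.8 to 25.6 FPKM, so detection alone does not tell stages apart. The oocyte and two-cell sums were lowest in DMSO replicate 1 and higher in both treated libraries than in either DMSO library. Oosp1 held most of the oocyte sum in each library. In treated embryos 10 of the 12 oocyte genes were higher and 2 lower, and 13 of the 16 two-cell genes were higher and 3 lower. Many of these two-cell genes are copies within the Zscan4, Usp17l, Tcstv and Tdpoz families, so they are not separate observations. The part of the oocyte and two-cell genes in the values of the junction genes was not tested. Of 18 cumulus and granulosa markers, 6 were at 0 counts in every library, among them Foxl2, Amh and Ptx3, and the list summed to 23.6 and 14.6 FPKM in DMSO replicates 1 and 2 and to 13.8 and 11 FPKM in treated replicates 1 and 2. Of 10 sperm markers, 5 were at 0 counts in every library, among them Prm1, and the list summed to 3.49 and 4.44 FPKM in DMSO replicates 1 and 2 and to 16.1 and 10.4 FPKM in treated replicates 1 and 2.

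Promoter sequence is shown for the members with the largest differences, Gja1 and F11r, and for both claudins, which had the highest and the lowest level of the set. Each line gives the 250 bases before the RefSeq start site (GRCm38.p6), 5′ to 3′ on the strand of the gene. They lie at chr10:56377050-56377299 on the plus strand, chr1:171437311-171437560 on the plus strand, chr17:23679115-23679364 on the plus strand and chr5:134946935-134947184 on the minus strand. Capitals mark TGAGTCA or its reverse complement TGACTCA, the motif of AP-1 factors, and CAGGTG or its reverse complement CACCTG, an E-box bound by repressors of the Snail and ZEB families.
Gja1: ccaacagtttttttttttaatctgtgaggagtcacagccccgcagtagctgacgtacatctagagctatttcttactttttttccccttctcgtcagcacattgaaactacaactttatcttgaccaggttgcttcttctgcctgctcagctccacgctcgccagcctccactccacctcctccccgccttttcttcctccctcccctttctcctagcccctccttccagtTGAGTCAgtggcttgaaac
F11r: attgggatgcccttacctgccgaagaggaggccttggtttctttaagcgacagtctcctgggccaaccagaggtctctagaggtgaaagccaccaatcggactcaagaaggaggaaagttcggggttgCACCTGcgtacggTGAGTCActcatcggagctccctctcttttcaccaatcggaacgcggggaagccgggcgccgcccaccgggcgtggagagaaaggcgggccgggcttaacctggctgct
Cldn6: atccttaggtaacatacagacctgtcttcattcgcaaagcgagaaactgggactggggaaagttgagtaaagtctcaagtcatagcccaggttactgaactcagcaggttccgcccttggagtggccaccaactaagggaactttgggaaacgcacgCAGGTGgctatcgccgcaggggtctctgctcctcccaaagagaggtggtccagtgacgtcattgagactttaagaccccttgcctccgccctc
Cldn4: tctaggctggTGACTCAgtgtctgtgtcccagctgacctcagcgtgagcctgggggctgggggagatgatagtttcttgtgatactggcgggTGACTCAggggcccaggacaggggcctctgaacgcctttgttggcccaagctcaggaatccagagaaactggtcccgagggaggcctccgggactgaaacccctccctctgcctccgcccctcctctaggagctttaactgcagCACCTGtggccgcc

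MYC-MAX binds the E-box CACGTG, which reads the same on both strands. It was in 0 of the 9 promoter windows of the 7 members that had one (Ctnnd1 and Ocln have 2 windows each, and the windows of 300 bases run to 50 bases past the start site), and in 7.15% of 32817 windows of all genes. Cdh1 and Ctnna1 were not searched. TGAGTCA or TGACTCA was found in 3 of the 9 windows, once in Gja1, 19 bases before the start site, once in F11r and at 2 places in Cldn4, against 5.20% of all windows. CAGGTG or CACCTG was found in 5 of the 9 windows, in F11r, Cldn4, Cldn6 and both windows of Ocln, against 20.2% of all windows. The 2 windows of Ocln overlap, and 1 match lies in both, so that match was counted in each. CCAAT or ATTGG was in 4 windows against 37.4% of all, and GGGCGG or CCGCCC in 6 windows against 35.6%. These are matches of letters, and a missing match says only that the letters are not in the window.

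Levels can be compared between genes in FPKM, which is scaled to transcript length. Cldn6 was the highest member with a mean of 41.5 FPKM over the 4 libraries, followed by Ctnna1 at 18.5, Gja1 at 11.4, F11r at 10.5, Ctnnd1 at 7.79, Ocln at 5.35, Cdh1 at 5.13, Tjp1 at 3.93 and Cldn4 at 0.122 FPKM. Each neighbouring pair in this order overlapped in range over the libraries, except Tjp1 and Cldn4. Among the tested genes ranked by mean FPKM, Cldn6 stood at percentile 82.1, Ctnna1 at 71.7, Cdh1 at 50.1 and Tjp1 at 45.5. By group means, Gja1 was second of 9 in DMSO embryos and seventh of 9 in treated embryos, and its range overlapped those of its neighbours in both orders. F11r was above Ctnnd1 in DMSO embryos and below it in treated embryos, without overlap in either group. Ocln was above Cdh1 in DMSO embryos without overlap, and in treated embryos the order of their means was the opposite with overlapping ranges.

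**Figure D1:**
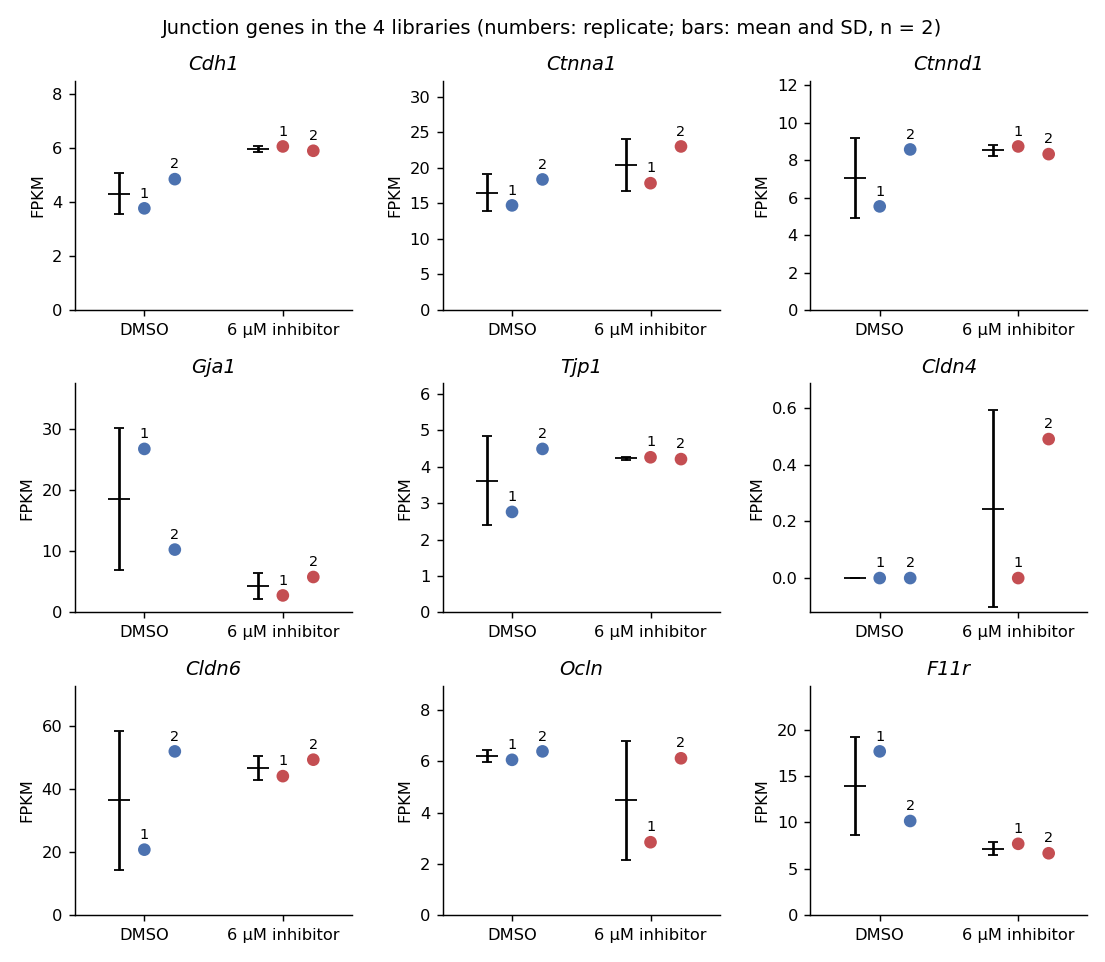
FPKM (vertical axes, linear, each panel with its own scale) of the 9 genes in the 4 libraries, with DMSO libraries in blue and libraries treated with 6 µM inhibitor in red. Points are libraries numbered by replicate, and black bars give the mean and SD of 2 libraries. Gja1 lies at 26.72 and 10.27 FPKM in DMSO and at 2.78 and 5.79 FPKM in treated embryos, while Cdh1 lies between 3.76 and 6.05 FPKM throughout.

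Of the 9 members, 8 passed the filter on low counts and were tested with edgeR over 13549 genes. The main test with Benjamini-Hochberg adjustment called 0 members (|log2FC| > 1 and adjusted p under 0.05), against 0% of all genes in either direction, and its smallest adjusted p over all genes was 0.33. At an unadjusted p under 0.05, 1 of the 8 members was lower, Gja1, and 0 were higher, against 10.1% of all tested genes lower and 4.72% higher (14.9% or 2013 genes in either direction). DESeq2 on the same genes called 1 member lower, Gja1, against 3.54% of all genes, and 0 higher, against 0.716%. At an unadjusted p under 0.05 DESeq2 had 2 members lower, against 12.3% of all genes, and 0 higher, against 7.48% (19.8% in either direction). Of the 8 members, 3 had a log2FC below 0, against 48.5% of all genes, and 5 above 0, against 51.5%. The median log2FC of the 8 members was 0.14, beside 0.04 for all tested genes. The libraries of the groups did not overlap in CPM (counts scaled to the normalized library total) for 3 members lower in treated embryos, Gja1, F11r and Ocln, and for 1 higher, Cdh1. All tested genes gave 28.3% lower and 28.9% higher by this measure. With 2 libraries a group, the smallest p of an exact permutation test of 1 gene (two-sided) is 0.33. The p-values describe the spread between libraries of pooled embryos. In such bulk samples, fewer cells that carry a transcript and less of it per cell cannot be told apart.

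**Figure D2:**
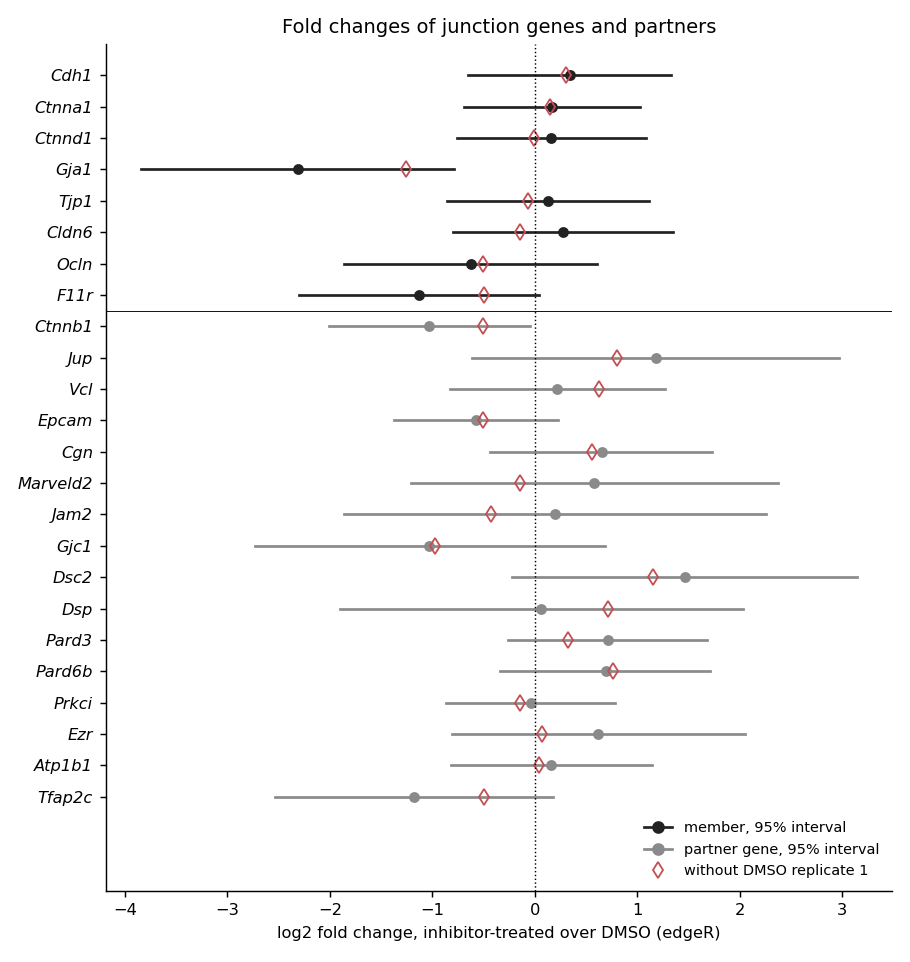
Log2 fold change of inhibitor-treated over DMSO embryos by edgeR (horizontal axis, 0 dotted) for the 8 tested members (black, above the line) and 16 partner genes (grey). Points are estimates, lines their 95% intervals, and open red diamonds the estimate without DMSO replicate 1. Gja1 at -2.31 is the only member whose interval lies wholly below 0, and without DMSO replicate 1 its estimate is -1.26.

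Cdh1 encodes E-cadherin, the adhesion molecule of compaction, on chromosome 8 (106603350 to 106670247, GRCm38.p6). It had 298 and 364 counts in DMSO replicates 1 and 2 and 519 and 482 counts in treated replicates 1 and 2, which is 17.8, 19.3, 24.1 and 23.0 CPM. Both treated libraries were above both DMSO libraries. The log2FC was 0.34 (standard error 0.42, 95% interval -0.65 to 1.33, adjusted p = 0.707 by the quasi-likelihood test of edgeR after Benjamini-Hochberg adjustment). Omitting any 1 library gave between 0.30 and 0.40.

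Ctnna1 encodes alpha-catenin, which links the cadherin complex to actin, and lies on chromosome 18 (35118902 to 35254776). Its counts were 957 and 1135 in DMSO and 1257 and 1547 in treated libraries, or 57.3, 60.1, 58.3 and 73.8 CPM, and treated replicate 1 lay between the DMSO replicates. The span of Ctnna1 overlaps Lrrtm2 and Gm46617, so its count may hold or lack some of their reads. Ctnnd1 encodes p120-catenin, which holds cadherin at the membrane, and lies on chromosome 2 (84587096 to 84658977). Its counts were 505 and 749 in DMSO and 868 and 797 in treated libraries, or 30.2, 39.7, 40.3 and 38.0 CPM. DMSO replicate 2 and both treated libraries were close together and DMSO replicate 1 was below them. The log2FC was 0.17 for Ctnna1 (95% interval -0.69 to 1.03, adjusted p = 0.841) and 0.16 for Ctnnd1 (95% interval -0.76 to 1.08, adjusted p = 0.860, both by the same edgeR test).

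Beta-catenin, which binds cadherin and also acts in Wnt signalling, is encoded by Ctnnb1 and gave a different pattern from its binding partners. Ctnnb1 had 140 and 76.0 CPM in DMSO and 53.8 and 51.6 CPM in treated embryos, which gave log2FC -1.03 (standard error 0.42, unadjusted p = 0.0410, adjusted p = 0.33 by edgeR), and -0.51 without DMSO replicate 1. The ratio of Ctnnb1 to Cdh1 in FPKM was 10.3 and 5.18 in DMSO replicates 1 and 2 and 2.94 and 2.95 in the treated replicates. The ratio of Ctnna1 to Cdh1 was 3.91, 3.79, 2.95 and 3.90 in the same order, and that of Ctnnd1 to Cdh1 was 1.47, 1.77, 1.44 and 1.41. Both treated ratios were below both DMSO ratios for Ctnnb1 and, by a small margin, for Ctnnd1, and the groups overlapped for Ctnna1.

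Gja1 encodes connexin 43, a gap junction channel, on chromosome 10 (56377300 to 56390419). It had 1446 and 528 counts in DMSO replicates 1 and 2 and 163 and 324 counts in treated replicates 1 and 2. In CPM this was 86.6 and 28.0 in DMSO and 7.56 and 15.5 in treated embryos. Both treated libraries were below both DMSO libraries, and the DMSO replicates differed by 3.10-fold from each other, against a 4.98-fold difference between the group means. The log2FC was -2.31 (standard error 0.65, 95% interval -3.84 to -0.79, unadjusted p = 0.00848, adjusted p = 0.33 by edgeR). DESeq2 on the same genes gave -2.33 (standard error 0.62, adjusted p = 0.00969), and edgeR without a filter on low counts gave an adjusted p of 0.00195. The log2FC was -1.26 without DMSO replicate 1 (adjusted p = 0.292) and -2.91 without DMSO replicate 2 (adjusted p = 0.000955, edgeR), so the size and the call depended on which DMSO library was kept. Over all alternatives the adjusted p of Gja1 lay between 0.000955 and 0.992.

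The make-up of the connexin transcripts is given as a description, with no test of the shares, and it reflects in part the lower values of Gja1 itself. Over 20 connexin genes, of which 4 were at 0 counts in every library, FPKM summed to 33.9 and 17.0 in DMSO replicates 1 and 2 and to 10.9 and 17.3 in treated replicates 1 and 2. Gja1 made up 78.7% and 60.6% of the sum in DMSO and 25.6% and 33.5% in treated embryos. Gja4, which encodes connexin 37, the channel of the oocyte, had 30 and 47 counts in DMSO and 131 and 179 in treated libraries, or 1.11, 1.84, 4.48 and 6.42 FPKM. Its log2FC was 1.77 (standard error 0.68, unadjusted p = 0.0337, adjusted p = 0.33 by edgeR) and 1.57 without DMSO replicate 1. The ratio of Gja1 to Gja4 in FPKM was 24.1 and 5.58 in DMSO and 0.621 and 0.902 in treated embryos. Gjc1, which encodes connexin 45, had 2.52 and 2.82 FPKM in DMSO and 1.36 and 1.52 FPKM in treated embryos (log2FC -1.03, adjusted p = 0.497 by edgeR). The summed oocyte markers, mostly Oosp1, were likewise higher in both treated libraries, and their part in the result for Gja4 was not tested. Among the 7 tested connexin and pannexin genes other than Gja1, 1 was higher at an unadjusted p under 0.05, Gja4, and 0 were lower, and their median log2FC was -0.21.

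**Figure D3:**
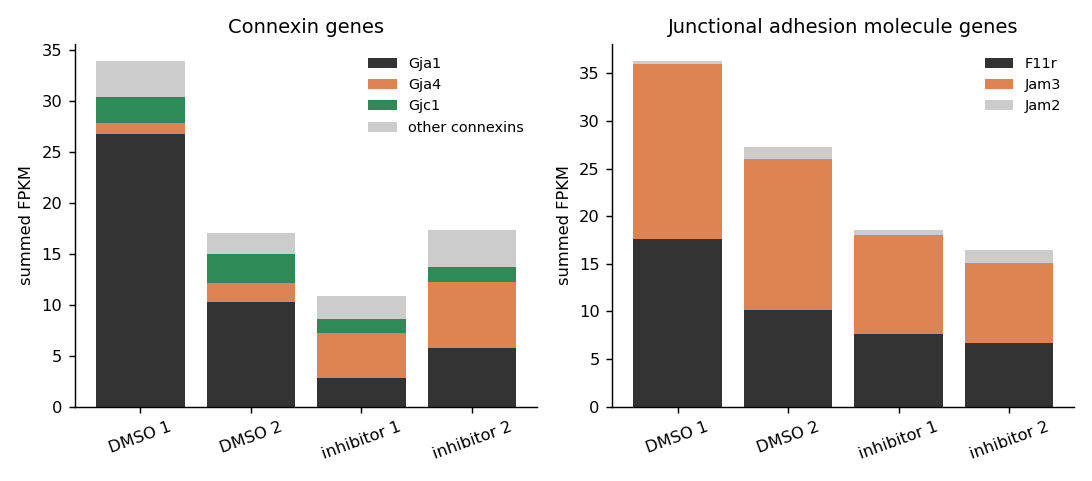
Summed FPKM (vertical axes, from 0) of connexin genes (left) and of the genes of junctional adhesion molecules (right) in each of the 4 libraries, stacked by gene. Gja1 fills 78.7% and 60.6% of the connexin bar in DMSO and 25.6% and 33.5% in inhibitor-treated libraries, and the summed adhesion molecule transcripts are 36.3 and 27.3 in DMSO and 18.6 and 16.5 FPKM in treated libraries.

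F11r encodes JAM-A, an immunoglobulin-type adhesion molecule that takes part in the early assembly of tight junctions, on chromosome 1 (171437561 to 171464593). Its counts were 744 and 406 in DMSO and 351 and 290 in treated libraries, or 44.6, 21.5, 16.3 and 13.8 CPM. The treated libraries were below both DMSO libraries, and the DMSO replicates differed by 2.07-fold, near the 2.19-fold difference between the group means. The log2FC was -1.13 (standard error 0.50, 95% interval -2.30 to 0.04, adjusted p = 0.343 by edgeR), -0.50 without DMSO replicate 1 (adjusted p = 0.622) and -1.57 without DMSO replicate 2 (adjusted p = 0.00758). Jam3, a related adhesion molecule named here after its values were seen, had 18.3 and 15.8 FPKM in DMSO and 10.3 and 8.42 FPKM in treated libraries (log2FC -1.02, adjusted p = 0.340 by edgeR). Jam2 had 0.31, 1.33, 0.58 and 1.40 FPKM, with overlapping groups. The 3 genes together summed to 36.3 and 27.3 FPKM in DMSO and to 18.6 and 16.5 FPKM in treated embryos, and F11r held between 37.1% and 48.6% of the sum.

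Ocln encodes occludin, a membrane protein of tight junction strands, on chromosome 13 (100496504 to 100552718). It had 338 and 339 counts in DMSO and 172 and 353 counts in treated libraries, or 20.2, 18, 7.98 and 16.8 CPM. The DMSO replicates were close, while the treated replicates differed, so that treated replicate 1 alone was far below the others. The log2FC was -0.62 (standard error 0.53, 95% interval -1.86 to 0.61, adjusted p = 0.569 by edgeR) and -0.14 without treated replicate 1, and it went down to -1.26 without treated replicate 2. The span of Ocln overlaps that of LOC115488221 in RefSeq.

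Tjp1 encodes ZO-1, the scaffold that ties tight junction strands to actin, on chromosome 7 (65296165 to 65527850). Its counts were 350 and 539 in DMSO and 594 and 555 in treated libraries, or 21, 28.5, 27.5 and 26.5 CPM. DMSO replicate 1 was the lowest, and DMSO replicate 2 was above both treated libraries. The log2FC was 0.13 (95% interval -0.86 to 1.11, adjusted p = 0.901 by edgeR) and -0.07 without DMSO replicate 1. The transcript length that RSEM assigned to Tjp1, an average over its isoforms, was between 6874 and 7009 bases, a narrow range.

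Cldn6 encodes claudin-6, a strand-forming protein of embryonic epithelia, on chromosome 17 (23679348 to 23682446). Its counts were 487 and 1160 in DMSO and 1126 and 1199 in treated libraries, or 29.2, 61.4, 52.2 and 57.2 CPM. DMSO replicate 2 and both treated libraries were close together, and DMSO replicate 1 was the low one. The log2FC was 0.27 (95% interval -0.80 to 1.35, adjusted p = 0.790 by edgeR), -0.15 without DMSO replicate 1 and 0.90 without DMSO replicate 2. Cldn6 held between 32.5% and 53.2% of the summed FPKM of the 32 claudin genes listed, and its rank among them was not tested. Claudin genes resemble each other, and reads shared between near-identical copies could have been lost in counting.

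Cldn4 encodes claudin-4, a strand protein of the later trophectoderm, on chromosome 5 (134945123 to 134946934). It had 0 counts in DMSO replicates 1 and 2 and in treated replicate 1, which allows up to 3 counts in each, and 15 counts in treated replicate 2, or 0.716 CPM. It did not pass the filter on low counts and was not tested, and no fold change is given because only 1 library was above the limit. The limit covers counting error only, because PCR copies of a molecule were not collapsed.

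The other genes of these structures were taken from lists written from general knowledge. Of 22 tested partners of adherens junctions, 17 were higher and 5 lower in treated embryos, with a median log2FC of 0.65 beside 0.04 for all tested genes. At an unadjusted p under 0.05, 1 was lower, Ctnnb1, and 1 was higher, Ctnna3. Ctnna3, an alpha-catenin known from heart and testis, had 5.87 and 16.9 CPM in DMSO and 29.5 and 30.7 CPM in treated embryos. Its log2FC was 1.40 (adjusted p = 0.334 by edgeR and 0.1 by DESeq2 on the same genes) and 0.85 without DMSO replicate 1. Its span contains Lrrtm3. Epcam, an adhesion molecule of epithelia, was the most abundant partner named here with 178 and 200 FPKM in DMSO and 144 and 136 FPKM in treated embryos (log2FC -0.57, adjusted p = 0.433). Jup, which encodes the junctional catenin plakoglobin, had 0.28, 0.63, 1.08 and 1.11 FPKM, and Vcl, which encodes the actin linker vinculin, had 5.61, 4.11, 7.06 and 5.62 FPKM in the 4 libraries, with adjusted p-values of 0.464 and 0.833 by edgeR.

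Cdh2, which encodes N-cadherin and was named after its values were seen, had 0.18 and 1.62 FPKM in DMSO and 3.82 and 2.86 FPKM in treated embryos (log2FC 1.84, standard error 0.89, adjusted p = 0.361 by edgeR). Cdh1 was therefore 20.9 and 2.99 times as high as Cdh2 in DMSO and 1.58 and 2.06 times as high in treated embryos. DMSO replicate 1 alone had the high ratio, and the log2FC of Cdh2 was 1.04 without DMSO replicate 1.

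Of 28 tested tight junction partners, 19 were higher and 9 lower in treated embryos, with a median log2FC of 0.52. At an unadjusted p under 0.05, Cldn8 and Magi2 were higher and Cxadr was lower. Cldn8 had 18 and 16 counts in DMSO and 101 and 103 counts in treated libraries. The log2FC was 2.31 (adjusted p = 0.33 by edgeR, standard error 0.84) and lay between 2.15 and 2.51 when single libraries were omitted. Both treated libraries were far above both DMSO libraries, which were close to each other. The level of Cldn8 was low, with 0.45 and 0.42 FPKM in DMSO and 2.34 and 2.5 FPKM in treated libraries. Over the alternatives that kept all libraries its log2FC lay between 1.25 and 2.46, and DESeq2 on the same genes gave it no adjusted p. Magi2, which encodes a scaffold protein, had 2 and 12 counts in DMSO and 65 and 86 in treated libraries, and its long span overlaps 10 other genes. Cxadr, which encodes an adhesion molecule of tight junctions and was named after its values were seen, had 115 and 52.1 CPM in DMSO and 28.5 and 41.9 CPM in treated embryos. Its log2FC was -1.25 (adjusted p = 0.33 by edgeR and 0.089 by DESeq2 on the same genes) and -0.55 without DMSO replicate 1. The length that RSEM assigned to Cxadr was 3436 bases in DMSO replicate 1 and 2496 to 2594 bases in the other libraries. In FPKM, scaled to length, Cxadr had 31.7 and 24.4 in DMSO and 12.8 and 19.9 in treated embryos. The scaffold gene Cgn and the strand gene Marveld2 had a log2FC of 0.65 and 0.58, with adjusted p-values of 0.5 and 0.727 by edgeR. Marveld2 was at -0.15 when DMSO replicate 1 was omitted and at 2.19 when DMSO replicate 2 was.

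Polarity genes, which set apart the apical surface of the compacted blastomere, were 15 higher and 10 lower of 25 tested, with a median log2FC of 0.19. Mark3, which encodes a kinase of the PAR-1 family, had 78.9 and 42.9 CPM in DMSO and 17.9 and 18.6 CPM in treated embryos (log2FC -1.74, standard error 0.45, unadjusted p = 0.00567, adjusted p = 0.33 by edgeR, -1.22 without DMSO replicate 1). DESeq2 on the same genes gave it an adjusted p of 0.0166. Pard6a, a PAR-6 gene, had 14 and 32 counts in DMSO and 137 and 115 in treated libraries (log2FC 2.22, adjusted p = 0.33). Its span overlaps that of Acd. The better expressed Pard6b had 23.6, 21.8, 45.3 and 27.8 CPM, Pard3 had 75.6, 146, 185 and 176 CPM, and Prkci, which encodes an atypical protein kinase C, had 80.1, 95.6, 87.5 and 82.8 CPM, with adjusted p-values of 0.455, 0.423 and 0.962.

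Of 30 tested genes of the cell cortex and actomyosin, 17 were higher and 13 lower, with a median log2FC of 0.25, and 2 were lower at an unadjusted p under 0.05. These were Rhoa, which encodes the GTPase that drives cortical contraction, and Prkcd, which encodes a protein kinase C. Rhoa had 603 and 297 CPM in DMSO and 145 and 196 CPM in treated embryos (log2FC -1.40, adjusted p = 0.33 by edgeR and 0.0378 by DESeq2 on the same genes). Prkcd had 242, 156, 58.5 and 105 CPM in the same order (log2FC -1.29, adjusted p = 0.33 by edgeR and 0.0559 by DESeq2 on the same genes). Rhoa was -0.78 without DMSO replicate 1 and Prkcd -0.92. Ezr, which encodes the apical linker ezrin, had 5.09, 14.6, 16.2 and 14.2 CPM, with DMSO replicate 1 alone below the others.

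Among 16 tested regulators of E-cadherin and epithelial genes, 8 were higher and 8 lower. Ovol2, which encodes an epithelial zinc finger factor, had 67.5 and 21.1 CPM in DMSO and 7.33 and 14.3 CPM in treated embryos (log2FC -2.03, adjusted p = 0.33 by edgeR, -0.94 without DMSO replicate 1). DESeq2 on the same genes gave Ovol2 -2.05 with an adjusted p of 0.0269, and edgeR without a filter on low counts gave an adjusted p of 0.0112. Its relative Ovol1 had 6.17 and 4.08 CPM in DMSO and 12.1 and 14.7 CPM in treated embryos (log2FC 1.39, adjusted p = 0.33). Tfap2c, which encodes the factor AP-2 gamma, had 87.2, 40.2, 16.2 and 40.0 CPM. Its log2FC was -1.18 (adjusted p = 0.367 by edgeR and 0.143 by DESeq2 on the same genes), with -0.50 when DMSO replicate 1 was omitted and -1.64 when DMSO replicate 2 was.

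Of 8 tested desmosome genes, 5 were higher and 3 lower, and 0 had an unadjusted p under 0.05. Dsc2, which encodes a desmosomal cadherin, had 0.34, 0.68, 1.47 and 1.55 FPKM (log2FC 1.46, adjusted p = 0.368 by edgeR), Pkp2 had 2.14, 3.91, 1.77 and 1.3 FPKM, and Dsp, which encodes desmoplakin, stayed between 0.21 and 0.40 FPKM. Of 7 tested genes of blastocoel transport, 2 were lower at an unadjusted p under 0.05, Atp1b3 and the aquaporin gene Aqp9, with 65.7, 25.5, 16.1 and 14.1 CPM for Aqp9. DESeq2 on the same genes gave Aqp9 a log2FC of -1.62 (adjusted p = 0.0499), and edgeR gave -0.75 without DMSO replicate 1. Fxyd4, a regulator of the sodium pump, was higher at that p, with 0 counts in both DMSO libraries and 31 and 36 in the treated ones. Atp1b1, which encodes a sodium pump subunit, had a log2FC of 0.16 (adjusted p = 0.870).

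**Figure D4:**
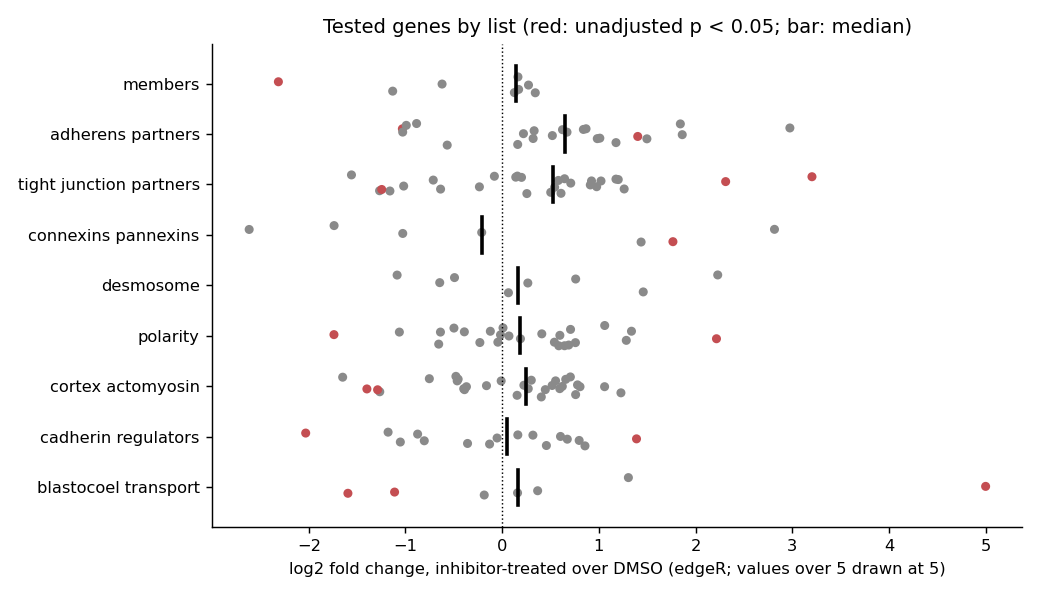
Log2 fold change by edgeR (horizontal axis, values over 5 drawn at 5) of the tested genes of each list (vertical axis), 1 point a gene, in red where the unadjusted p is under 0.05, with the median as a black bar. The members have a median of 0.14 with Gja1 as the single red point at -2.31, and the medians of adherens and tight junction partners lie at 0.65 and 0.52.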

How the data were processed

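The authors amplified cDNA of polyadenylated RNA with a SMART-Seq kit, aligned read pairs to mm10 with STAR (version 2.7.10), kept uniquely mapped reads and ran RSEM (version 1.3.3). The deposited expected count is RSEM's estimate of fragments per gene and is not normalized. The deposited FPKM is scaled by the authors to effective transcript length and library size. The TPM deposited by the authors was not analysed beyond a look at its unit. The kit does not mark strand, so reads of genes that overlap on opposite strands cannot be told apart.

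Expected counts were rounded, filtered with filterByExpr (minimum count 10, minimum total count 15), scaled with TMM factors and tested with edgeR 4.0.16 (quasi-likelihood, robust) in R 4.3.3, with Benjamini-Hochberg adjustment over 13549 genes. Standard errors are the log2FC over the root of the F statistic. Alternatives were DESeq2 1.42.0, limma 3.58.1 on log2(FPKM + 1) or log2(FPKM + 0.1) where mean FPKM reached 1, other scalings and filters, a replicate block, and each library left out. The code was tested on simulated data. Members and lists were chosen with earlier results of these data known. The text names the members, a set of partners, of which 1 is not reported here, and, per list, the 2 tested genes of smallest p, others where stated. Coordinates and promoters are from RefSeq on GRCm38.p6, the assembly of mm10.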

Additional observations from a re-analysis of the deposited data

How the results depend on the processing

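The direction of each tested member held under every change of tool, scaling and filter and with the replicate block. It turned for 4 members, in 2 of the 4 fits with a library left out. Without DMSO replicate 1 the log2FC was -0.15 for Cldn6, -0.07 for Tjp1 and -0.01 for Ctnnd1, and without treated replicate 2 it was -0.01 for Ctnna1. Over the libraries left out, the log2FC ran from -0.15 to 0.90 for Cldn6, from -0.07 to 0.36 for Tjp1, from -0.01 to 0.37 for Ctnnd1 and from -0.01 to 0.37 for Ctnna1, and the median of the members from -0.11 to 0.28, the latter without DMSO replicate 2, where all tested genes had 0.22. With a library left out, 1 library stands against 2, so groups overlap less readily by chance than in the main fit. No share of all tested genes is given for these fits, nor with library totals or in log2(FPKM + 1). Their counts of members without overlap therefore cannot be judged and are listed only as values. Library totals and log2(FPKM + 1) each gave 2 members lower and 1 higher without overlap. Over the fits with a library left out, the members not overlapping between groups were 3 to 5 lower and 1 to 5 higher. Those at an unadjusted p under 0.05 were 1 to 2 lower and 0 to 1 higher, while all genes at that p ran from 461 of 14552 without treated replicate 1 to 6166 of 14669 without DMSO replicate 2. At an unadjusted p under 0.05, 2 members were lower with each DESeq2 fit and without a filter, against 1 in the main fit. In these fits 0 members were higher. All genes at that p, in either direction, were 2013 of 13549 in the main fit and 2680 of 13549 by DESeq2 on the same genes. They were 2815 of 18208 by DESeq2 on every gene with a count, 2818 with transcript lengths, and 2881 by edgeR without a filter.

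Genes called lower and higher numbered 0 and 0 by edgeR, 479 and 97 by DESeq2 on the same genes, 437 and 87 by DESeq2 on every gene with a count, 438 and 87 by DESeq2 with transcript lengths, and 479 and 165 by edgeR without a filter. With a library left out they ran from 1 to 2065 lower and from 1 to 2148 higher, highest without DMSO replicate 2, where the single DMSO library is assumed to vary like the treated ones. The replicate block gave 32 and 12, and Gja1 then had an adjusted p of 0.113. The replicate numbers share no stated source, and deviations of same-numbered libraries correlated at -0.0711, so the numbers were not taken as pairs. The median of all tested genes was 0.17 with library totals and 0.04 with TMM.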

Other observations

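Marker genes of other stages and cells gave these values. Oosp1, an oocyte-secreted protein gene, had 378 and 898 CPM in DMSO and 2125 and 1638 CPM in treated embryos, and Gdf9, an oocyte growth factor gene, had 26.3, 71.2, 110 and 134 CPM. Both were higher in treated embryos at an unadjusted edgeR p under 0.05, with log2FC 1.56 and 1.32. Zp3 was lower at that p, and of the 12 oocyte genes 10 were higher and 2 lower. Of the 16 two-cell genes, 13 were higher, among them Zscan4f and Eif4e3 at that p. The 3 lower ones, all at that p, were Eif1a and the 2-cell factors Dppa2 and Dppa4. Dppa2 had 1794, 359, 169 and 178 CPM and Dppa4 had 1633, 688, 269 and 400 CPM. The DMSO replicates differed by 5-fold for Dppa2 and 2.37-fold for Dppa4.

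Of the cumulus and granulosa markers, Amhr2 held most of the sum in DMSO replicate 1, with 21.5 of 23.6 FPKM, and had 8.57, 5.57 and 4.45 FPKM in the other libraries, while Cyp19a1 had 0.57, 0.66, 2.94 and 0.65 FPKM. The sperm genes Prm2 and Spaca1 had 10, 27, 111 and 39 counts and 12, 0, 0 and 17 counts. The blastocyst markers summed to 25.5 and 25.6 FPKM in DMSO and 13.8 and 20.7 FPKM in treated embryos. Gata4 held most of the sum in DMSO, with 23.4 and 20.7 FPKM there and 9.07 and 12 FPKM in treated embryos. Of the 6 tested blastocyst markers 5 had a log2FC above 0 and Gata4 alone was below, with a median of 0.55. Sox2 had 0.24, 3.18, 2.23 and 6.59 FPKM. The connexin gene Gjb2 had 9 and 0 counts in DMSO and 24 and 57 in treated libraries.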
